A study of Mus musculus with 24 samples.

Results

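The genes described here are 9 members of the inflammatory cytokine network of the wound, chosen by symbol among the 54232 mouse genes counted in every library. They comprise the IL-1 agonists Il1a and Il1b, the receptor antagonist Il1rn, the signalling receptor Il1r1, the decoy receptor Il1r2, and the cytokines Tnf, Il6, Osm and Il10. They were measured by RNA sequencing of 24 wounds in the back skin of male mice of the diabetic db/db strain. These mice, on the C57BLKS/J background, lack a working leptin receptor and become obese. Wounds 6 mm wide were punched at 16 weeks of age, dressed at once with an alginate bandage that was renewed on day 3, and collected on day 10, at 17.5 weeks of age. The bandages carried medium in which primary macrophages had been kept, with M0 macrophages for CM0 (n = 4), M1 for CM1 (n = 4), M2a for CMA (n = 5) and M2c for CMC (n = 5), and control bandages served as Ctrl (n = 6). All 24 libraries came from db/db mice, Ctrl included, so no non-diabetic wound is among those analysed here. The sources used here do not say whether each library came from its own animal, so p-values measure the spread between these libraries.

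IL-1 alpha and IL-1 beta are early alarm cytokines that act through the same receptor, IL1R1, and switch on NF-kB in keratinocytes, fibroblasts and endothelium. IL-1 alpha is stored in keratinocytes and released on damage, while IL-1 beta is made by neutrophils and macrophages as a precursor that inflammasomes cleave. IL1RN occupies the receptor without signalling and IL1R2 binds IL-1 without a signalling tail, so both dampen the pathway. TNF also drives NF-kB, IL-6 and oncostatin M act through the shared chain gp130 and STAT3, and IL-10 restrains cytokine production by macrophages. In diabetic wounds the inflammatory phase is known to last longer than in healthy skin.

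The promoters of Il1b, Il6 and Tnf are shown because the RNA of Il6 and Tnf followed that of Il1b most closely among the members that have an entry in the RefSeq promoter table, which holds 7 of the 9 genes. Each runs from 250 bases before to 50 bases after the start of transcription, 5′ to 3′, in RefSeq GRCm38.p6. Capitals mark the bases that match TATAAA, the C/EBP motif TTNNGNAA or the NF-kB consensus, on either strand.
Il1b, chr2:129371090-129371389, minus strand: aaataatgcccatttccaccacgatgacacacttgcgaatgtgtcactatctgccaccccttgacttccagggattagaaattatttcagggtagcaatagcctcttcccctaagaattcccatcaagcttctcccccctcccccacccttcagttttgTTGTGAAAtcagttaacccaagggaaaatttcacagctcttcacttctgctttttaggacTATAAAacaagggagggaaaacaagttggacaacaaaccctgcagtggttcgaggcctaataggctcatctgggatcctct
Il6, chr5:30012864-30013163, plus strand: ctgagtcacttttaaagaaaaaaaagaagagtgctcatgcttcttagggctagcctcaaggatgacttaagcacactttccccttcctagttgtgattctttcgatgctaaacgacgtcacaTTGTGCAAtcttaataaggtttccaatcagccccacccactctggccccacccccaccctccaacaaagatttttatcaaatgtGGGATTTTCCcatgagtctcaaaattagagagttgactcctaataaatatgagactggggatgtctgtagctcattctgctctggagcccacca
Tnf, chr17:35201958-35202257, minus strand: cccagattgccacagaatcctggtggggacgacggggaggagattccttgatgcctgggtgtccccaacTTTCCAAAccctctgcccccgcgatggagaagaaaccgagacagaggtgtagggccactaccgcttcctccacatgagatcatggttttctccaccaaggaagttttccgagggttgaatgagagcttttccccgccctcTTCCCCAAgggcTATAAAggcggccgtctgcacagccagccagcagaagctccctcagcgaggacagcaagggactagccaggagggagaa
TATAAA began 31 bases before the start in Il1b and 29 bases before it in Tnf, and 13.6% of the 32851 promoters in the table hold it on either strand. In all, 4 of the 7 members with an entry held it. The others were Il1a, 32 bases before the start, and Il1rn, in 1 of its promoters on the opposite strand 14 bases after the start. The NF-kB consensus was matched 44 bases before the start of Il6 and in no window of Il1b or Tnf, against 4.51% of all promoters. Of the other members, 1 of the Il1r1 promoters also held it. All 3 promoters shown held a C/EBP match, as did 6 of the 7 members with an entry and 40.7% of all promoters. Of the remaining motifs searched on both strands, TGANTCA of AP-1 was found in Il1a, Il1rn and Il6 against 7.81% of all promoters, and TTCNNNGAA of STAT factors in Il1r2 against 8.30%. These matches are letters in a window and say nothing of binding in these wounds.

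Total counts ran from 7267879 to 11985292 per library, and levels are given as CPM, the counts scaled to a common library size with TMM factors. All 9 genes passed the filter on low counts that left 18978 genes. Ctrl 3 stood apart in hair follicle genes, with a summed 8512 CPM against a median of 30.8 CPM over all libraries. Ctrl 4 held the most skeletal muscle RNA, at 12327 CPM over 10 muscle genes against a median of 4204 CPM. CM1 3 stood apart in the cytokines themselves, being the highest of 24 libraries in 5 of the 9 genes. Macrophage genes, which define a cell type expected in these wounds, summed to 2050 to 5038 CPM and none of the 13 was at 0 in any library. In whole tissue, fewer cells of a type and less RNA per cell cannot be told apart.

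Il1b was the most variable of the 9 genes and spanned a 230-fold range over the wounds. Its gene lies on chromosome 2 from 129364570 to 129371139 on the minus strand (ENSMUSG00000027398). It was at 21.8, 2.02, 2.59 and 69.3 CPM in the 4 CM0 libraries and at 19.6, 5.01, 199 and 42.4 CPM in the 4 CM1 libraries. The CMA libraries had 6.39, 2.91, 2.59, 22.4 and 1.5 CPM, and the CMC libraries had 28.5, 19.2, 13.6, 14.5 and 0.864 CPM. In the 6 Ctrl libraries Il1b had a lowest value of 1.76, a median of 3.63 and a highest of 51.9 CPM. Every group thus held wounds with little Il1b beside wounds with much of it, and no medium was separated from Ctrl. The log2 fold change to Ctrl was 0.42 (SE 1.11) in CM0 and 1.89 (SE 1.08) in CM1. It was -1.34 (SE 1.15) in CMA and -0.23 (SE 1.07) in CMC. The 95% interval in CM1 ran from -0.36 to 4.14, so neither no difference nor a change of several fold lies outside it. Without CM1 3 the value in CM1 was 0.33. Without CM0 4 the value in CM0 was -1.0. In CMC the sign was not stable, at 0.52 by limma and between -0.58 and 0.46 with single libraries left out. The standard deviation (SD) of log2 CPM over the 24 libraries was 2.02 for Il1b, at percentile 99.9 of the 18978 genes, whose median was 0.27.

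**Figure D1:**
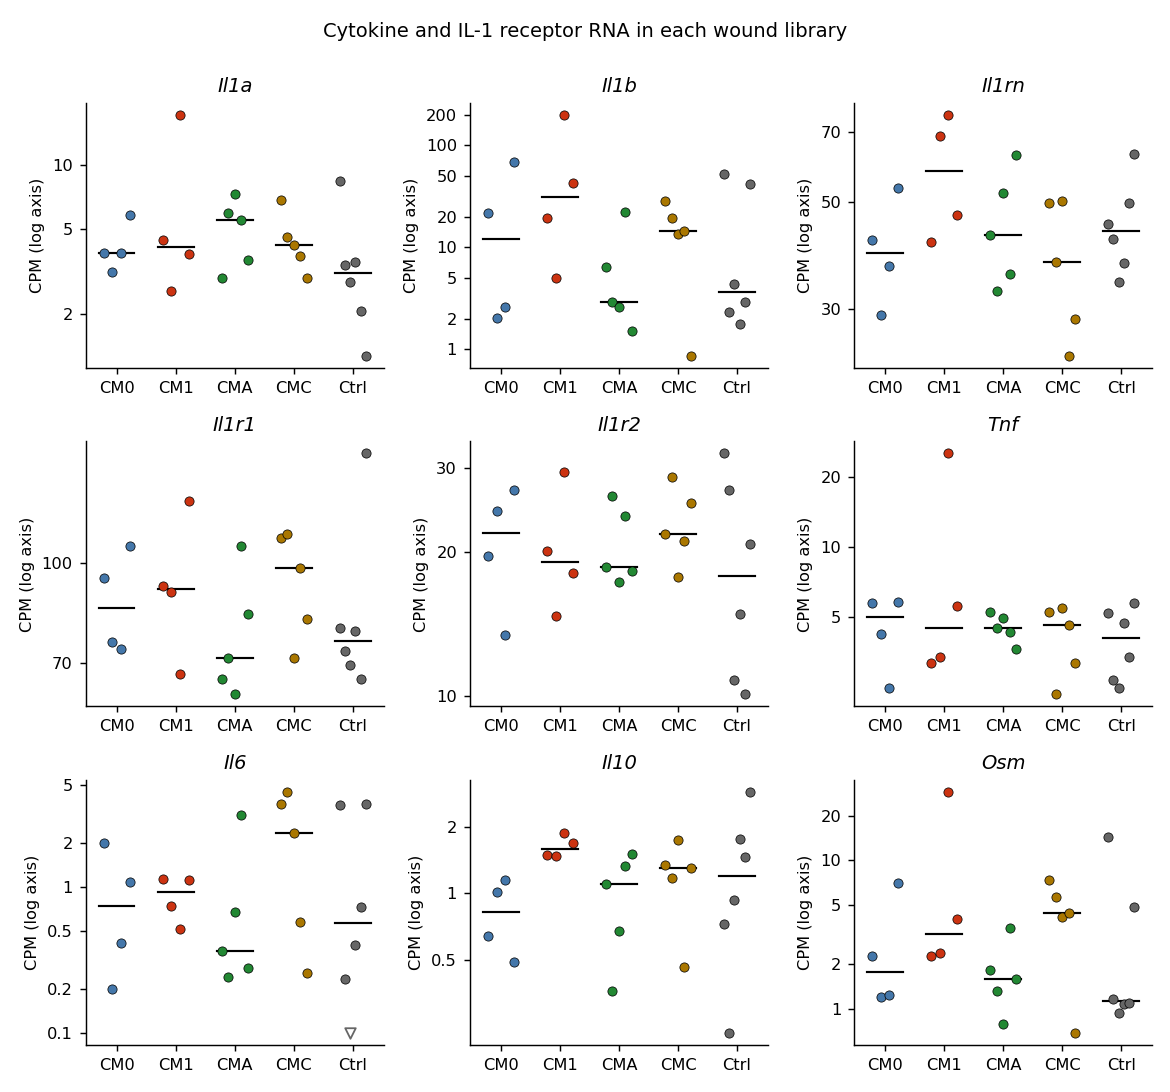
CPM of each gene (log axis) in each library, with CM0, CM1, CMA and CMC left of Ctrl and a line at each group's median. The open triangle stands for the Ctrl library with 0 counts of Il6, and the single CM1 library far above the rest in Tnf, at 25.1 CPM, is also the highest in Il1a, Il1b, Il1rn and Osm.

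Il1a, the agonist that keratinocytes hold ready, varied over a narrower 13.6-fold range (chromosome 2, 129299610 to 129309972, minus strand, ENSMUSG00000027399). It had 3.84, 3.13, 3.84 and 5.80 CPM in CM0 and 4.44, 2.55, 17.2 and 3.81 CPM in CM1. It had 2.95, 5.93, 7.32, 5.53 and 3.57 CPM in CMA and 6.84, 4.57, 4.19, 3.71 and 2.94 CPM in CMC. In Ctrl the lowest value was 1.26, the median 3.10 and the highest 8.44 CPM. All 4 CM0 libraries, 3 of 4 CM1, 4 of 5 CMA and 4 of 5 CMC libraries lay above the Ctrl median, yet each group overlapped Ctrl. The 14 genes of wound-edge keratinocytes summed to 1046 to 6708 CPM in CM0, 2307 to 5819 in CM1, 1748 to 6342 in CMA and 1688 to 6731 in CMC, against 841 to 6027 CPM in Ctrl, with none at 0 in any library. All 13 of them that were tested had a log2 fold change above 0 over the mean of the media, with a median of 0.83 against -0.010 for all genes and 0 called. Their part in the values of Il1a was not tested. The log2 fold change of Il1a was 0.22 (SE 0.49) in CM0, 0.97 (SE 0.47) in CM1, 0.50 (SE 0.46) in CMA and 0.31 (SE 0.46) in CMC. Over the mean of the 4 media it was 0.50 (SE 0.37), with the smallest p of the 9 genes in that comparison and an adjusted p of 0.668 by edgeR. The value in CM1 was 0.0026 without CM1 3.

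Il1rn, the antagonist, was abundant in every wound (chromosome 2, 24336853 to 24351494, plus strand, ENSMUSG00000026981). It ranged from 29.1 to 53.7 CPM in CM0, 41.4 to 76.2 in CM1, 32.7 to 62.8 in CMA and 23.9 to 50.3 in CMC, against 34.1 to 63.0 CPM in Ctrl. The whole range over 24 wounds was 3.19-fold. The log2 fold change was -0.17 (SE 0.24) in CM0, 0.37 (SE 0.24) in CM1, -0.0017 (SE 0.23) in CMA and -0.25 (SE 0.23) in CMC. In CM1 2 of the 4 libraries, at 69.0 and 76.2 CPM, lay above all 6 Ctrl libraries. In CMC 2 of the 5 libraries, at 23.9 and 28.6 CPM, lay below all of them.

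Il1r1 varied least of the 9 genes, while Il1r2 varied about as much as Il1rn. Il1r1, through which both agonists signal, lay between 62.7 and 148 CPM in all wounds, a 2.35-fold range (chromosome 1, 40225080 to 40317257, plus strand, ENSMUSG00000026072). Its group means were 87.5 ± 15.6 CPM in CM0 and 93.6 ± 23.6 in CM1, and 78.0 ± 17.7 in CMA and 94.3 ± 17.2 in CMC, against 85.7 ± 30.7 CPM in Ctrl (SD). Ctrl 6 was the highest at 148 CPM, and the other Ctrl libraries did not exceed 79.5 CPM. The log2 fold changes were 0.027 (SE 0.21) in CM0, 0.12 (SE 0.21) in CM1, -0.14 (SE 0.20) in CMA and 0.13 (SE 0.20) in CMC. All 4 of these 95% intervals lay within a 2-fold change in either direction. Il1r2, the decoy, had 13.4 to 27 CPM in CM0, 14.7 to 29.5 in CM1, 17.3 to 26.1 in CMA and 17.7 to 28.7 in CMC, against 10.1 to 32.2 CPM in Ctrl (chromosome 1, 40074079 to 40125231, plus strand, ENSMUSG00000026073). Its Ctrl libraries had the widest range of the 5 groups, at 3.20-fold. Its log2 fold changes were 0.13 (SE 0.28) in CM0, 0.088 (SE 0.28) in CM1, 0.11 (SE 0.26) in CMA and 0.25 (SE 0.26) in CMC. They too lay within a 2-fold change at their 95% bounds. For both receptors, leaving out at least 1 library changed the sign in every medium but CMC.

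Tnf was far above the rest in a single wound (chromosome 17, 35199381 to 35202007, minus strand, ENSMUSG00000024401). It had 5.77, 4.24, 2.49 and 5.80 CPM in CM0 and 3.19, 3.37, 25.1 and 5.60 CPM in CM1. It lay between 3.66 and 5.28 CPM in the 5 CMA libraries and between 2.34 and 5.47 CPM in the 5 CMC libraries. In Ctrl the lowest value was 2.49, the median 4.06 and the highest 5.73 CPM. Outside CM1 3 the 23 remaining libraries stayed at or below 5.80 CPM, and the groups overlapped throughout. The log2 fold change in CM1 was 1.19 (SE 0.44), with an unadjusted p of 0.0127, the smallest of the 9 genes against Ctrl, and an adjusted p of 0.695 by edgeR. Without CM1 3 it was -0.0020. It was 0.18 (SE 0.46) in CM0, 0.16 (SE 0.44) in CMA and 0.035 (SE 0.44) in CMC.

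Osm, which encodes oncostatin M of the IL-6 family, behaved more like Il1b (chromosome 11, 4236420 to 4241026, plus strand, ENSMUSG00000058755). It had 2.29, 1.21, 1.25 and 7.08 CPM in CM0 and 2.28, 2.38, 28.8 and 4.03 CPM in CM1. It had 1.84, 1.33, 0.788, 3.49 and 1.6 CPM in CMA and 7.40, 5.63, 4.19, 4.41 and 0.691 CPM in CMC. In Ctrl the lowest value was 0.934, the median 1.13 and the highest 14.4 CPM. All 4 libraries of CM0 and of CM1, and 4 of 5 in CMA and in CMC, exceeded the Ctrl median, while the highest Ctrl library exceeded all but CM1 3. The log2 fold change was -0.43 (SE 0.87) in CM0, 1.23 (SE 0.80) in CM1, -1.15 (SE 0.88) in CMA and 0.14 (SE 0.80) in CMC. Without CM1 3 the value in CM1 was -0.46. Without Ctrl 1 the value in CM0 was 0.62, and by limma it was 0.11. In CMC it lay between -0.12 and 1.2 with single libraries left out. Counts above the Ctrl median and fold changes thus differed in direction for CM0 and CMA. In CMA the value stayed below 0 whichever single library was left out, from -1.52 to -0.092.

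Il6 was scarce, with between 0 and 44 counts per library (chromosome 5, 30013114 to 30019981, plus strand, ENSMUSG00000025746). It had 2.01, 0.202, 0.415 and 1.08 CPM in CM0 and 1.14, 0.740, 0.519 and 1.12 CPM in CM1. It had 0.369, 0.242, 0.675, 3.13 and 0.282 CPM in CMA and 3.70, 4.46, 2.33, 0.580 and 0.259 CPM in CMC. In Ctrl the median was 0.566 and the highest value 3.71 CPM. Ctrl 3 had 0 counts, which allows up to 3 counts or 0.311 CPM there. Of the 7 highest libraries, 3 were CMC, 2 Ctrl, 1 CMA and 1 CM0. The log2 fold change was 0.55 (SE 0.78) in CMC, -0.68 (SE 0.91) in CM0, -0.80 (SE 0.93) in CM1 and -0.72 (SE 0.87) in CMA, with all groups overlapping. By limma the values in CM0 and CM1 were 0.18 and 0.30, so their sign is not settled. CM1 3, the highest library in 5 of the 9 genes, had 0.519 CPM of Il6 from 5 counts and ranked 15 of 24.

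Il10, the anti-inflammatory cytokine, had 2 to 34 counts per library (chromosome 1, 131019845 to 131024974, plus strand, ENSMUSG00000016529). It had 0.641, 1.01, 1.14 and 0.492 CPM in CM0 and 1.48, 1.48, 1.87 and 1.68 CPM in CM1. It had 1.11, 0.363, 0.675, 1.32 and 1.5 CPM in CMA and 1.35, 1.17, 1.75, 0.464 and 1.30 CPM in CMC. In Ctrl the lowest value was 0.234, the median 1.19 and the highest 2.87 CPM. In CM1 against CM0 the log2 fold change was 0.98 (SE 0.49), with an unadjusted p of 0.0566 and an adjusted p of 0.99996 by edgeR. That comparison called 0% of all genes. The CM1 libraries rested on 13 to 18 counts of Il10 and the CM0 libraries on 5 to 11. Against Ctrl the log2 fold change was -0.72 (SE 0.46) in CM0, 0.26 (SE 0.42) in CM1, -0.42 (SE 0.43) in CMA and -0.16 (SE 0.41) in CMC. None of the CM0 libraries was above the Ctrl median and all 4 CM1 libraries were, yet both groups lay within the Ctrl range. Without Ctrl 6 the value was 0.00082 in CMA and 0.26 in CMC.

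Per kilobase of exon, which allows a rough comparison of levels between genes, the receptors and the antagonist led. The length used joins all annotated exons of a gene, 5535 bases for Il1rn and 1908 for Il1r2. The transcripts present in the wounds may be shorter. In CPM alone the median was 42.3 for Il1rn and 20.4 for Il1r2, so the order of these 2 genes rests on the lengths. Il1r1 had a median of 12.7 CPM per kilobase over the 24 libraries, Il1r2 10.7, Il1rn 7.64 and Il1b 5.24. Tnf followed with 2.78, Il1a with 1.94, Osm with 1.0, Il10 with 0.941 and Il6 with 0.289 CPM per kilobase. Neighbours in this order overlapped: Il1rn exceeded Il1b in 13 of 24 libraries and Osm exceeded Il10 in 12 of 24. The remaining neighbours kept their order in 15 to 18 of 24 libraries, so no adjacent pair was separated in every wound. The range of Il1b, from 0.453 to 104 CPM per kilobase, covered those of the other 8 genes apart from the lowest values of Osm, Il10 and Il6.

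Against Ctrl, 0 of the 9 genes passed an adjusted p of 0.05 in edgeR's quasi-likelihood test. In CM0 against Ctrl, 5 genes had a log2 fold change above 0 and 4 below, with a median of 0.027 against -0.010 for all genes. That comparison called 0% of the 18978 genes, with 933 at an unadjusted p under 0.05, none of them a member. In CM1 against Ctrl, 8 were above 0 and 1 below, with a median of 0.37 against -0.0054 for all genes, in a comparison that called 0% with 1337 at an unadjusted p under 0.05. Without CM1 3 the count in CM1 was 5 above and 4 below, with a median of 0.0026 against -0.015 for all genes. In CMA against Ctrl, 3 were above 0 and 6 below, with a median of -0.14 against -0.013 for all genes, where 0% were called and 1254 had an unadjusted p under 0.05. In CMC against Ctrl, 6 were above 0 and 3 below, with a median of 0.13 against -0.0070 for all genes, where 0% were called and 1622 had an unadjusted p under 0.05. For the mean of the 4 media, 5 were above 0 and 4 below, with a range from -0.41 for Il6 to 0.50 for Il1a, where 0% were called and 1788 had an unadjusted p under 0.05. The comparisons share the Ctrl libraries and so are not independent. DESeq2 called 1 gene in CM0, 1 in CM1, 1 in CMC and none of the 9 members, and limma called 0 genes in each. The widths of the intervals differed by gene more than by medium, as the plot of fold changes shows.

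**Figure D2:**
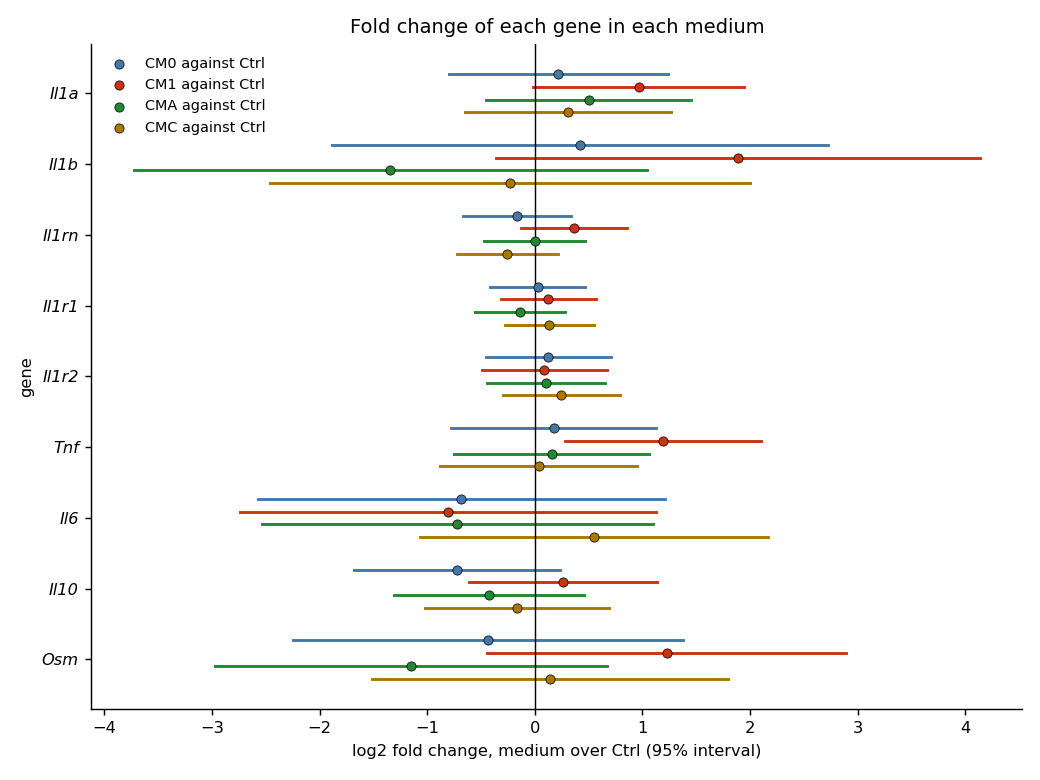
Log2 fold change of each gene in each medium over Ctrl with its 95% interval from edgeR. The intervals of Il1r1 and Il1r2 are narrow and those of Il1b, Il6 and Osm wide; that of Tnf in CM1 alone lies clear of 0, from 0.28 to 2.11, and its estimate is -0.0020 without CM1 3.

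Between media, 0 of the 9 genes passed in any of the 6 pairs, each of which called 0% of all genes. In CMA against CM1, Il1b had the smallest p of the 9, with 7.15 ± 8.70 CPM in CMA and 66.4 ± 89.5 CPM in CM1 (SD), a log2 fold change of -3.23 (SE 1.23) and an adjusted p of 0.995 by edgeR. That value was -1.66 without CM1 3. Of the 9 genes 3 had an unadjusted p under 0.05 there, the others being Osm at -2.37 (SE 0.91) and Tnf at -1.04 (SE 0.46), which without CM1 3 were at -0.69 for Osm and 0.155 for Tnf. In CMC against CM1, Tnf had 4.18 ± 1.36 CPM in CMC and 9.32 ± 10.6 CPM in CM1, which on the log2 scale is a fold change of -1.16 (SE 0.46). It was 0.039 without CM1 3. The other gene of the 9 with an unadjusted p under 0.05 there was Il1rn, with 38.0 ± 12 CPM in CMC and 58.4 ± 16.8 CPM in CM1 (SD). Its log2 fold change was -0.62 (SE 0.25, unadjusted p 0.0205 by edgeR), and -0.47 without CM1 3. These 3 further genes, and Il10 in CM1 against CM0, were chosen after their values were seen. In CM1 against CM0, the estimate for Tnf on the log2 scale was 1.02 (SE 0.49). Leaving out CM1 3 gave -0.17. In CMA against CM0 it was Il1b at -1.76 (SE 1.22), and in CMC against CM0 and CMC against CMA it was Il6 at 1.24 (SE 0.92) and 1.27 (SE 0.88). Unadjusted p-values under 0.05 were found for 422 genes in CM1 against CM0, 596 in CMA against CM0, 706 in CMC against CM0, 759 in CMA against CM1, 514 in CMC against CM1 and 1169 in CMC against CMA. In the test for any difference among the 5 groups, 0% of genes were called by edgeR, 882 had an unadjusted p under 0.05, and Tnf had the smallest p of the members at 0.0669. DESeq2 called 1 gene in that test, which is no member.

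The balance of antagonist to agonist also spread widely within each group. The log2 ratio of Il1rn to Il1b counts averaged 2.05 ± 2.10 in CM0 and 0.90 ± 2.16 in CM1, and 3.30 ± 1.77 in CMA and 1.87 ± 1.80 in CMC, against 2.65 ± 1.98 in Ctrl (SD). In 3 of the 24 wounds Il1b had more counts than Il1rn, namely CM0 4 at -0.37, CM1 3 at -1.38 and Ctrl 1 at -0.20 on the log2 scale. The highest ratio was 5.34, in CMA 5. The difference to Ctrl was -0.60 in CM0 and -1.75 in CM1, and 0.65 in CMA and -0.78 in CMC, and the smallest two-sided p of these 4 exact permutation tests was 0.248. The log2 ratio of decoy to signalling receptor, Il1r2 to Il1r1, averaged -2.08 ± 0.36 in CM0 and -2.20 ± 0.71 in CM1, and -1.90 ± 0.30 in CMA and -2.04 ± 0.25 in CMC, against -2.23 ± 0.68 in Ctrl (SD). Its difference to Ctrl was 0.14 in CM0 and 0.029 in CM1, and 0.33 in CMA and 0.19 in CMC. Adjusted over the 8 exact tests, the p-values lay between 0.795 and 0.829. The smallest p that the design allows is 0.00952 with 4 libraries and 0.00433 with 5. Since the counts are not divided by gene length, a ratio compares wounds and not the 2 RNAs.

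**Figure D3:**
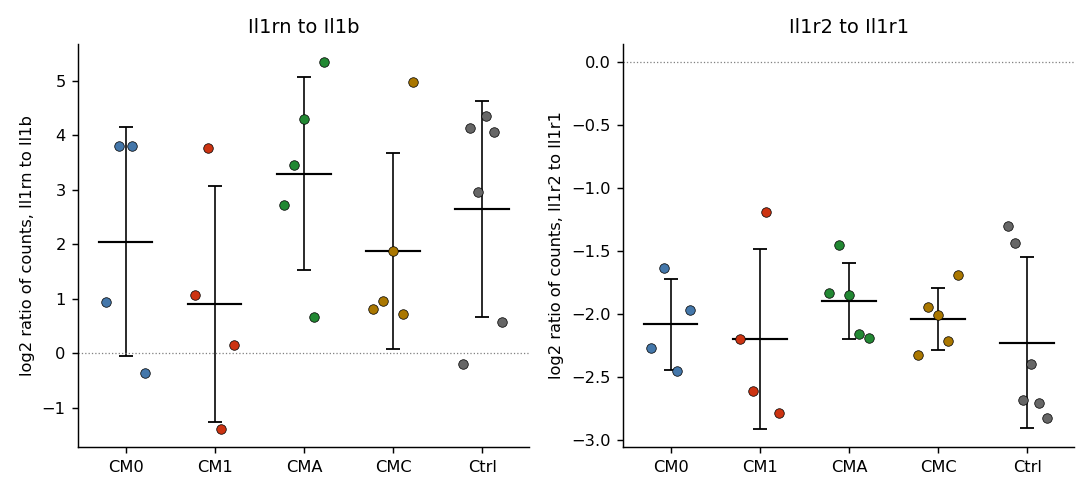
Log2 ratio of counts in each library for antagonist to agonist (left) and decoy to signalling receptor (right), with CM0, CM1, CMA and CMC left of Ctrl. Lines and bars give the mean and SD of each group; the 4 Ctrl libraries with ratios of Il1rn to Il1b from 2.95 to 4.36 stand above the 2 at -0.20 and 0.58.

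Some of the genes varied together from wound to wound. Over all 24 libraries and 36 pairs of members, 7 pairs had a Spearman correlation with an adjusted p under 0.05 in permutation tests with 100000 resamples. Il1b and Osm were the closest, with r = 0.92 and rho = 0.87, an adjusted p of 0.00036 for each and r = 0.88 without the 2 libraries farthest from the median of Il1b. For Il1b and Il6 r was 0.64 (adjusted p 0.00774) and rho 0.70 (adjusted p 0.00312), with r = 0.77 without those 2. For Il6 and Osm r was 0.61 (adjusted p 0.00912) and rho 0.70 (adjusted p 0.00312), with r = 0.57 without the 2 farthest libraries. For Il1b and Tnf r was 0.63 (adjusted p 0.00774) and rho 0.60 (adjusted p 0.0171), with r = 0.47 without the 2 farthest. The remaining 3 pairs were Il1r1 with Il6 at rho = 0.61, Il1r1 with Osm at 0.52 and Tnf with Osm at 0.52. Il1a, Il1rn, Il1r2 and Il10 were in none of the 7 pairs. Taking away each group's mean left rho at 0.88 for Il1b and Osm, 0.68 for Il1b and Il6, 0.58 for Il6 and Osm and 0.64 for Il1b and Tnf, so these relations were found within the groups. The 2 pairs of Il1r1 then had adjusted p-values of 0.0607 with Il6 and 0.168 with Osm. Without CM1 3 the adjusted p of Tnf and Osm was 0.127. In the other direction, Il1b and Il1r1 then had rho = 0.60 (adjusted p 0.0164, permutation test). Without the 2 libraries farthest from the median of Il1b, their rho was 0.65 (adjusted p 0.0136). With the 2 farthest libraries left out, Il1a with Il1b, Il6 and Osm, and Tnf with Il6, also had an adjusted p under 0.05.

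After the values were seen, the relations were also computed in the 12 libraries with the highest and the 12 with the lowest Il1b. The step between these sets, from 6.39 to 13.6 CPM, is 1.09 on the log2 scale, and the largest step, just below CM1 3, is 1.52. Within the 12 libraries of higher Il1b, rho with Osm was 0.57 (adjusted p 0.117), with Tnf 0.62 (adjusted p 0.100) and with Il6 -0.23 (adjusted p 0.539). Within the 12 of lower Il1b, rho with Osm was 0.44 (adjusted p 0.247), with Tnf 0.042 (adjusted p 0.904) and with Il6 0.26 (adjusted p 0.539). The narrower range of Il1b and the 12 libraries per side limit what either side can show, so these values do not settle whether the relations are graded. These p-values are from permutation tests adjusted over 8 relations.

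**Figure D4:**
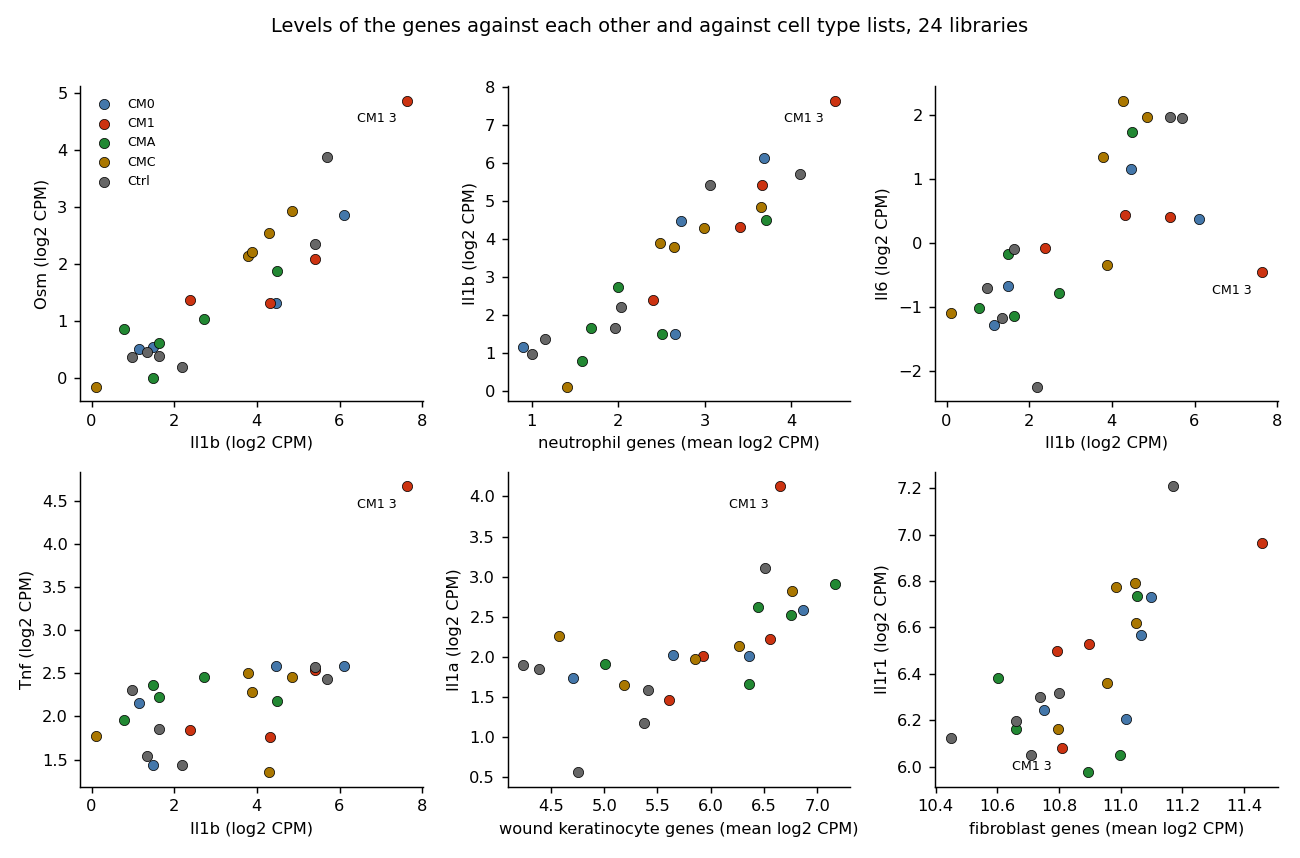
Log2 CPM of the genes against each other and against the mean log2 CPM of cell type lists, 1 point per library coloured by group. Il1b had r = 0.92 with Osm and r = 0.91 with the neutrophil genes, and CM1 3 has the highest Il1b, at 199 CPM.

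Il1b also followed the neutrophil genes. Neutrophils are the first leukocytes to enter a wound, and the mean log2 CPM of 11 of their 16 listed genes that passed the filter had r = 0.91 and rho = 0.92 with Il1b over 24 libraries. The adjusted p over 54 relations of 9 genes with 6 cell type lists was 0.00027 for r and 0.00054 for rho, and r was 0.89 without the 2 libraries farthest from the median score. Within the 12 libraries of higher Il1b rho was 0.85 (adjusted p 0.00616, permutation test), and within the 12 of lower Il1b it was 0.62 (adjusted p 0.100). That split was by Il1b itself and was chosen after the values were seen. Its higher side holds CM1 3, which ranked 1 of 24 in both Il1b and the neutrophil list. The same list had rho = 0.79 with Osm, 0.74 with Il6 and 0.61 with Il1a. After each group's mean was taken away, the adjusted p for Il1a was 0.0611 by permutation test. Summed over its 16 genes, the neutrophil list ranged from 49.8 to 517 CPM in CM0, 198 to 725 in CM1, 83.5 to 502 in CMA and 100.1 to 457 in CMC, against 50.1 to 411 CPM in Ctrl. Ly6g, which defines mouse neutrophils, had no counts in any CMA or CMC library. It was also at 0 in some CM0, CM1 and Ctrl libraries, so its absence does not set CMA and CMC apart. Retnlg, Trem1, Ltf, Camp, Ngp, Mpo and Elane were at 0 in some libraries as well. CMA 4 and CMC 1, without a count of Ly6g, still ranked 3 and 6 of 24 in the mean log2 CPM of the list. That mean is thus a level of the listed genes and not a count of neutrophils. Whether the number of neutrophils sets the level of Il1b was not tested.

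Members also had relations with the other lists. Il1a had r = 0.63 (adjusted p 0.00702) and rho = 0.71 (adjusted p 0.00189) with the genes of wound-edge keratinocytes such as Krt6a and Krt16, and r = 0.67 without the 2 farthest libraries. Il1r1 had r = 0.70 (adjusted p 0.0027) and rho = 0.65 (adjusted p 0.00864) with fibroblast genes such as Col1a1 and Pdgfra, and r = 0.65 without the 2 farthest. It also had r = 0.57 and rho = 0.55 with macrophage genes. Il6 had rho = 0.58 with macrophage genes and 0.62 with fibroblast genes, and Il1b had rho = 0.61 with fibroblast genes. By rho but not by r, Il1b also passed with the genes of wound-edge keratinocytes (rho = 0.53, adjusted p 0.0356). So did Osm with the genes of monocytes and dendritic cells (rho = 0.58, adjusted p 0.0182) and with fibroblast genes (rho = 0.50, adjusted p 0.0499). Several members thus followed more than 1 list. Without the 2 farthest libraries the adjusted p for rho with macrophage genes was 0.122 for Il1r1 and 0.128 for Il6. For Il1r1 it was 0.170 after each group's mean was taken away. Il10 had r = 0.59 (adjusted p 0.0164) and rho = 0.59 (adjusted p 0.0162) with macrophage genes, and r = 0.56 without the 2 farthest. After each group's mean was taken away, Il10 and the macrophage genes had rho = 0.48 and an adjusted p of 0.0895. Il1rn, Il1r2 and Tnf had no relation with an adjusted p under 0.05 for rho to any of the 6 lists over all libraries. Il1rn and the macrophage genes had rho = 0.40 (adjusted p 0.151) there. After each group's mean was taken away, they had rho = 0.60 and an adjusted p of 0.0281. In all, 14 of the 54 relations passed by rho and 11 by both measures. All of these p-values are from permutation tests with 100000 resamples.

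Library by library, 2 wounds were high in different genes. CM1 3 was the highest of 24 in Il1a, Il1b, Il1rn, Tnf and Osm and the second highest in Il1r2 and Il10, but ranked 21 in Il1r1 and 15 in Il6. Ctrl 6 was the highest in Il1r1 and Il10 and the second highest in Il6, but the lowest in Il1a. CM0 4 was among the 6 highest libraries in 7 of the 9 genes, all but Il6 and Il10. At the other end CMC 5 was the lowest in Il1b and Osm, and Ctrl 3 was at or below rank 15 in every member. The 4 CM1 libraries were above the median of 24 in 5, 5, 7 and 7 of the 9 genes. The CMC libraries were above it in 9, 6, 7, 5 and 3 genes, the CM0 libraries in 6, 1, 1 and 8. The CMA libraries were above it in 2 to 7 genes and the Ctrl libraries in 0 to 8. No CM1 or CM0 library was the lowest in any gene.

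**Figure D5:**
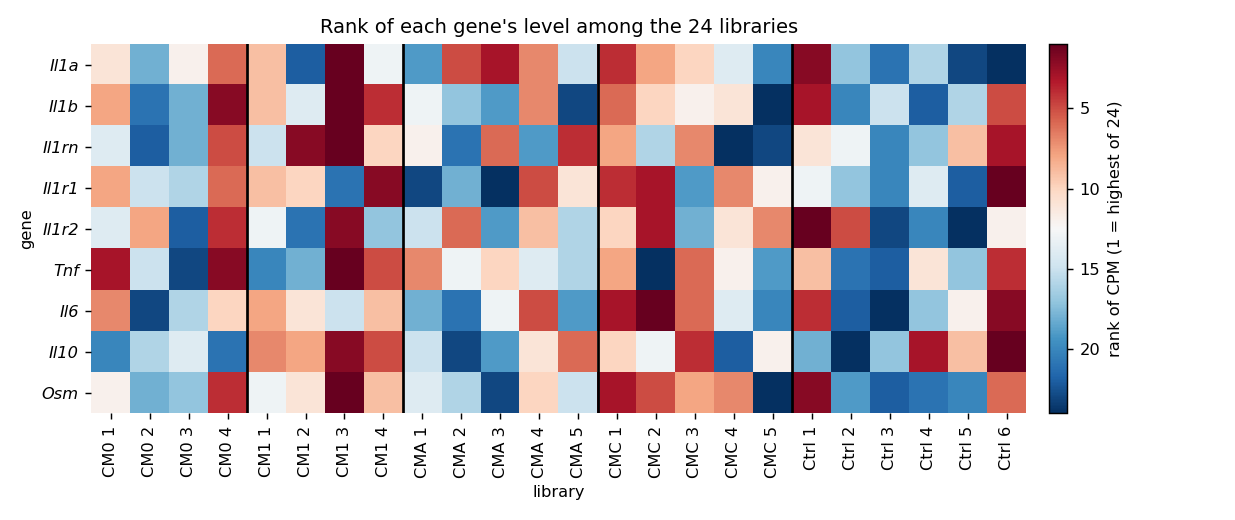
Rank of each gene's CPM among the 24 libraries (red high, blue low), with vertical lines between CM0, CM1, CMA, CMC and Ctrl. CM1 3 is red in 7 genes and blue in Il1r1, and all 4 CM1 libraries lie above the median in at least 5 of the 9 genes. CMC 1 lies above the median in all 9.

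Genes whose pattern was most like that of each member were named by the highest Spearman rho of log2 CPM over the 24 libraries among the 18977 others, as a description. For Il1b these were Trem1 (rho = 0.96), an activating receptor of neutrophils and monocytes that is also in the neutrophil list, Gm5483 (0.95) and Acod1 (0.94), which makes itaconate in activated macrophages. Acod1 ranged from 0 to 83.0 CPM with its highest value in CM1 3. For Osm they were Cd300lf (0.94), Cxcl2 (0.94), a chemokine that attracts neutrophils, and Samsn1 (0.92). For Il6 they were Ripk3 (0.89), Mcl1 (0.89) and Rbms1 (0.89), for Tnf Gm15369 (0.81), Pcdh17 (0.77) and Wsb1 (0.76), and for Il10 Arap1 (0.79), Swap70 (0.78) and Tlr1 (0.77). For Il1a they were Mxi1 (0.87), Uba3 (0.85) and Junb (0.85), and for Il1rn Nfkbid (0.77), Sirpb1c (0.77) and Slfn3 (0.77). For Il1r1 they were St3gal1 (0.90), Dram1 (0.89) and Trpc4ap (0.86), and for Il1r2 Igfbp3 (0.86), Dst (0.80) and Rgcc (0.78). No gene was named for more than 1 member, and the highest rho of Il1rn, 0.77, was below those of Il1b and Osm.

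No gene of the surrounding pathways passed the test. None of the 18 genes of IL-1 processing and signalling, the 19 tested of 20 for TNF receptors, the 17 for IL-6 and oncostatin M receptors, the 11 for IL-10 receptors and the 28 tested of 31 NF-kB target genes was called in any medium. In CM1, 13 of the 18 IL-1 genes had a log2 fold change above 0, with a median of 0.085 against -0.0054 for all genes, and Il1rap, the co-receptor of Il1r1, had 0.35 (SE 0.12, adjusted p 0.695 by edgeR). Of the NF-kB target genes, 23 of 28 were above 0 in CM1, with a median of 0.15, and without CM1 3 it was 16 of 29 with a median of 0.017. Ccl4, a chemokine made by activated leukocytes, had 2.62, 2.47, 55.7 and 4.59 CPM in the CM1 libraries, while the highest Ctrl library had 4.79 CPM. Its log2 fold change in CM1 was 2.99 (SE 0.72, adjusted p 0.695 by edgeR) and 0.65 without CM1 3. In CMC, 22 of 28 NF-kB target genes were above 0 with a median of 0.12 against -0.0070 for all genes, and the one with the smallest p was Vcam1, an endothelial adhesion molecule, at 0.42 (SE 0.15, adjusted p 0.547 by edgeR). In CM0 it was 9 of 28 with a median of -0.047, and in CMA 10 of 28 with a median of -0.082. Of all genes, between 46.7% and 48.7% were above 0 when a single medium was set against Ctrl. Of the 13 macrophage genes, 2 were above 0 in CM0 and 1 in CMA, with a median of -0.12 each time. For CM1 the count was 10 of 13 (median 0.13), and for CMC it was 12 of 13 (median 0.20). Of the 11 neutrophil genes, 8 were above 0 in CM0 (median 0.17) and 10 in CM1 (median 1.04). It was 5 of 11 for CMA (median -0.35) and also for CMC (median -0.015). Genes of 1 list are not independent of each other within a library, so such counts are not separate events. The macrophage genes summed to 2569 to 3708 CPM in CM0, 2972 to 4189 in CM1, 2050 to 3591 in CMA and 3189 to 5038 in CMC, against 2464 to 4374 CPM in Ctrl. No gene of either list was called, and their part in the NF-kB counts was not tested. In CMA the NF-kB target with the smallest p was Ptges, a prostaglandin E synthase, at 0.55 (SE 0.18, adjusted p 0.725 by edgeR), and in CM0 it was Irf1 at -0.27 (SE 0.13).

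Of the other pathway genes with the smallest p, Aim2, a DNA-sensing inflammasome receptor, had 8.39 ± 1.32 CPM in CMC, against 11.2 ± 2.02 CPM in Ctrl (SD), and a log2 fold change to Ctrl of -0.42 (SE 0.15, adjusted p 0.547 by edgeR). Over the mean of the media Aim2 was at -0.29 (SE 0.11), Il1rap at 0.19 (SE 0.092), Tradd, an adaptor of the TNF receptor, at 0.17 (SE 0.077) and Traf2 at 0.094 (SE 0.059). Jak1, a kinase of the gp130 and IL-10 receptors, was at 0.24 (SE 0.11) in CM1, 0.22 (SE 0.10) in CMC and 0.19 (SE 0.081) over the mean. Il6st, which encodes gp130, was at 0.080 (SE 0.064) and Etv3 at -0.11 (SE 0.063) over the mean of the media. Ptges at 0.32 (SE 0.14) and Mmp9, a matrix protease of leukocytes, at 0.91 (SE 0.45) were the NF-kB targets with the smallest p there. Within single media Tradd was at 0.15 (SE 0.10) in CM0 and 0.28 (SE 0.10) in CM1, and Ltb at 0.42 (SE 0.27) in CMA. Birc3 was at 0.15 (SE 0.097) in CMC, and Socs1, a feedback inhibitor of cytokine receptors, at -0.46 (SE 0.19) in CM0. Clcf1 was at -0.31 (SE 0.26), Il10ra at -0.13 (SE 0.10) and Tollip at 0.15 (SE 0.067) in CMA, and Etv3 at -0.15 (SE 0.087) and Aim2 at -0.29 (SE 0.16) in CM0. These are log2 fold changes to Ctrl, and their adjusted p-values by edgeR were 0.463 or higher.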

How the data were processed

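The deposited values are raw counts of reads per gene, 1 table per library, and the authors had not normalised them. Per the submitters' processing notes, the tools were bcl2fastq 2.17, FastQC, cutadapt, STAR, featureCounts and DESeq2, with GRCm38. Per the labels' protocols, total RNA was depleted of ribosomal RNA and made into libraries with a kit that keeps no strand. Il1a shares 222 exon bases with Gm14023 and Il1b shares 25 with Il1bos on the other strand, whose reads cannot be told apart. Gene names, positions and exon lengths come from GENCODE M21.

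The members and gene lists were chosen with earlier results of these data known. Of 233 list entries, 232 were matched. Counts of all 24 libraries were fitted together with edgeR 4.0.16 in R 4.3.3 (filterByExpr, TMM, robust quasi-likelihood, 1 term per group), with Benjamini-Hochberg adjustment over 18978 genes at 0.05. Replicate numbers follow accession order only, and the labels give no batch. Libraries of 1 group differed by more than counting noise, so each was counted as a library of its own. That check cannot tell whether 2 libraries came from the same animal. CPM use TMM-scaled library sizes, and log2 CPM a prior count of 2. Ratios use 0.5 added to each count and two-sided exact permutation tests, and correlations use permutation tests (SciPy 1.17.1). Bounds for 0 counts cover counting error only. DESeq2 1.42.0 and limma 3.58.1 were alternatives, beside other scalings, filters and libraries left out. The fit was tested on simulated data.

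Genes were named by rule, namely all members, the 2 pathway genes per list with the smallest p over the mean of the media and 1 per medium, the member with the smallest p between media, and 3 genes of like pattern per member. Promoters are from RefSeq GRCm38.p6, and protein sequences were not used here.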

Additional observations from a re-analysis of the deposited data

Results flagged for a closer look

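Dixon's gap test at 95% was run on 55 sets of values per group with 4 to 6 libraries. In 9 of them the highest or lowest library lay far from the others. Chance does this in about 1 group in 20 where values follow a normal curve. The genes were tested as CPM, which were skewed upward, with a mean of 24.1 and a median of 10.0 CPM for Il1b. The rate for such values is not known here, so the 9 cannot be set against 1 in 20. CM1 3 was far above the other CM1 libraries in Il1a at 17.2 CPM, in Tnf at 25.1 CPM and in Osm at 28.8 CPM. CMA 4 was far above the other CMA libraries in Il1b at 22.4 CPM and in Il6 at 3.13 CPM. Ctrl 1 was far above the other Ctrl libraries in Il1a at 8.44 CPM and in Osm at 14.4 CPM, and Ctrl 6 in Il1r1 at 148 CPM. CMC 5 was far above the other CMC libraries in the log2 ratio of Il1rn to Il1b counts, at 4.98. The genes are not independent of each other within a library, so such gaps within 1 library are not separate events.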

How the results depend on the processing

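No member was called by edgeR under any alternative tried, and neither DESeq2 nor limma called one. The number of genes called was 1 with DESeq2 in CM0, in CM1, in CMC and in the test for any difference, against 0 with edgeR, and it ranged from 0 to 1 in CM0 and from 0 to 5 over the mean of the media with single libraries left out, the highest being without CM0 2 and without Ctrl 2. Against Ctrl in CM0, leaving out 1 library at a time gave log2 fold changes from -1.0 to 1.11 for Il1b, -0.078 to 0.25 for Il1r1, -0.015 to 0.33 for Il1r2 and -1.32 to 0.62 for Osm. In CM1 they ran from -0.044 to 0.34 for Il1r1, -0.13 to 0.29 for Il1r2, -0.0020 to 1.47 for Tnf and -0.46 to 2.27 for Osm. In CMA they ran from -0.15 to 0.11 for Il1rn, -0.28 to 0.084 for Il1r1, -0.024 to 0.31 for Il1r2 and -0.64 to 0.00082 for Il10. In CMC they ran from -0.58 to 0.46 for Il1b, -0.079 to 0.18 for Tnf, -0.37 to 0.26 for Il10 and -0.12 to 1.2 for Osm. Over the mean of the media Il6 ran from -0.72 to 0.14, and Tnf ran from -0.17 to 1.29 in CM1 against CM0 and from -1.43 to 0.039 in CMC against CM1, and from -1.31 to 0.155 in CMA against CM1. The ratio of Il1rn to Il1b in CM0 less Ctrl ran from -1.19 to 0.20, and that of Il1r2 to Il1r1 from -0.0060 to 0.33 in CM0 and from -0.31 to 0.23 in CM1. Il1rn in CMA was at 0.000336 with RLE size factors and 0.0024 with DESeq2. With limma, Il6 was at 0.18 in CM0, 0.30 in CM1 and 0.28 over the mean of the media, Osm at 0.11 in CM0, and Il1b at 0.52 and Il10 at 0.067 in CMC. Without Ctrl 3, Ctrl 4 and CM1 3 together, Il1b was at -0.063, Il1r1 at -0.069 and Il1r2 at -0.095 in CM0. Likewise in CM1 Il1a was at -0.082, Il1b at -0.18, Il1r2 at -0.36, Tnf at -0.091 and Osm at -0.91. Il1r2 was at -0.12 in CMA, Tnf at -0.048 and Osm at -0.30 in CMC, and Tnf at -0.18 in CM1 against CM0, 0.043 in CMC against CM1 and 0.16 in CMA against CM1. Chosen after seeing the data, the count of members above 0 in CM1 was 5 without CM1 3, against 8 with it, and rho of Il1b and Il6 was -0.23 within the 12 libraries of higher Il1b. The causes were not tested. No paired analysis was possible because replicate numbers follow accession order and pair no libraries. Il6 and Il10 rest on few counts per library, which limits their precision, and 4 to 6 libraries per group limit that of Il1b and Osm.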
